A study of Mus musculus with 4 samples.

Results

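Retinoic acid signalling was examined through 9 genes of mouse ES cells, covering an enzyme that makes retinoic acid, an enzyme that destroys it, its carriers inside the cell and its nuclear receptors. They were chosen by name from the 56748 genes listed in the count table. The libraries came from E14 cells, a mouse ES cell line grown without feeders on gelatin in serum and LIF. The WT group had 2 libraries, WT1 and WT2. The Npac KO group had 2 libraries, KO1 and KO2, from clones made with CRISPR/Cas9 and guides against exon 3 of Npac, a reader of a histone methylation mark. The study's methods give no drug treatment of the sequenced cells, and the listed components of the medium include no added retinoic acid. The knockout clones were selected with puromycin and picked as colonies, and whether WT cells went through these steps is not stated. The paper names KO1 and KO2 as separate knockout lines. Neither it nor the labels say whether WT1 and WT2 came from separate cultures, so the p-values measure only the spread between these libraries, which for WT may be technical.

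Retinoic acid is made from retinol in successive oxidation steps, the last of them catalysed by retinaldehyde dehydrogenases such as Aldh1a2. Inside the cell it is carried by Crabp1 and Crabp2, it binds retinoic acid receptors (RARs) that sit on DNA as heterodimers with retinoid X receptors (RXRs), and it is removed by Cyp26 enzymes. In ES cells added retinoic acid is a classical inducer of differentiation, and Rarb and Cyp26a1 are textbook direct targets that respond through a retinoic acid response element. A common form of that element, DR5, is a direct repeat of a hexamer with 5 bases between the copies.

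The promoter windows of Rarb and Cyp26a1 are shown because both hold a DR5, and these are the genes of the group with the fewest reads. Windows run from 250 bases before to 50 bases after a start site and were taken from RefSeq (build GRCm38.p6) by symbol, with 8 of the 9 genes matched and Crabp2 not. The hexamer AGGTCA was searched on both strands, with AGTTCA allowed as a variant, GGGTCA as another variant, and GGTTCA as the last variant. Each window is written 5′ to 3′ on the strand of the gene, with the DR5 in capitals. The Rarb window is chr14:16575427-16575726 (minus strand) and the Cyp26a1 window is chr19:37697558-37697857 (plus strand).
Rarb: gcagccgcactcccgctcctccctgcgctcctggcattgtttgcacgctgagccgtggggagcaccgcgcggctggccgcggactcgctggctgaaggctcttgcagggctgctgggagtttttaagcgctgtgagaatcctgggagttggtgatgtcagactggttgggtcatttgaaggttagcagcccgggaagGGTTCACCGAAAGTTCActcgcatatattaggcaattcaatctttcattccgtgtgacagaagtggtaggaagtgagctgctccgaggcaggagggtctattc
Cyp26a1: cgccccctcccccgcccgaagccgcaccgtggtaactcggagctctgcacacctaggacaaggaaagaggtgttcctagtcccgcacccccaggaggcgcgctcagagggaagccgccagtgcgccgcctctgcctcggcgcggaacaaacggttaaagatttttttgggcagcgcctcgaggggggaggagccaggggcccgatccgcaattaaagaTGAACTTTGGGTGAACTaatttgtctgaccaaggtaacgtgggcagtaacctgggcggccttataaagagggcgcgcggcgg
In Rarb the DR5 reads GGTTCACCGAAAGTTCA on the sense strand and begins 53 bases before the start site. In Cyp26a1 it reads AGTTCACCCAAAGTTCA on the antisense strand, printed above as its reverse complement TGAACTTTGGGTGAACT, and begins 32 bases before the start site. A DR5 was found in 32 of 32851 windows of this length (0.0974%), and among the 14 windows of the group it was found in these. Repeats with 1 or 2 bases between the hexamers, which occurred in 0.222% and 0.268% of all windows, were not found in the group's windows. No window of the 37 matched genes among 51 other pathway genes held a DR5. A match of letters is a description and not a measured binding site.

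The total count was between 15850805 and 16965120 reads per library. Npac, listed as Glyr1, had 259 and 178 CPM in the WT libraries against 47.9 and 51.3 CPM in the KO libraries, 22.7% of the WT level (log2 fold change -2.14, standard error 0.23, edgeR adjusted p = 0.00174). CPM here are counts scaled to a common library size (the CPM scale) after TMM normalization. All 6 ES cell markers were read in every library. Their summed level was 4715 CPM in WT1, 3501 CPM in WT2, 2674 CPM in KO1 and 2443 CPM in KO2, and 1 of them, Zfp42, fell. Of the markers of other cells, 6 for primitive endoderm summed to between 20.3 and 32.5 CPM, 6 for fibroblasts to between 35.8 and 59 CPM with Col3a1 and Dcn at 0 throughout, and 5 for neural cells to between 52.2 and 79.6 CPM. In these lists 2 markers rose and 2 fell, and their part in the results below was not tested. In bulk samples fewer cells expressing a gene and less RNA per cell cannot be told apart.

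Of the 9 genes, 7 had enough reads to be tested, and Rarb and Cyp26a1 did not. A gene was said to rise or fall at a Benjamini-Hochberg adjusted p under 0.05 over all 18157 genes tested and a fold change over 1.5, by edgeR's quasi-likelihood test of the Npac KO libraries against the WT libraries. Rarg and Crabp1 rose, where 11.0% of all genes tested rose, and Rxra fell, where 10.7% of all genes fell. Crabp2, Rara, Rxrb and Aldh1a2 did not pass both thresholds. Counts this small describe these genes and say nothing about the group.

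**Figure D1:**
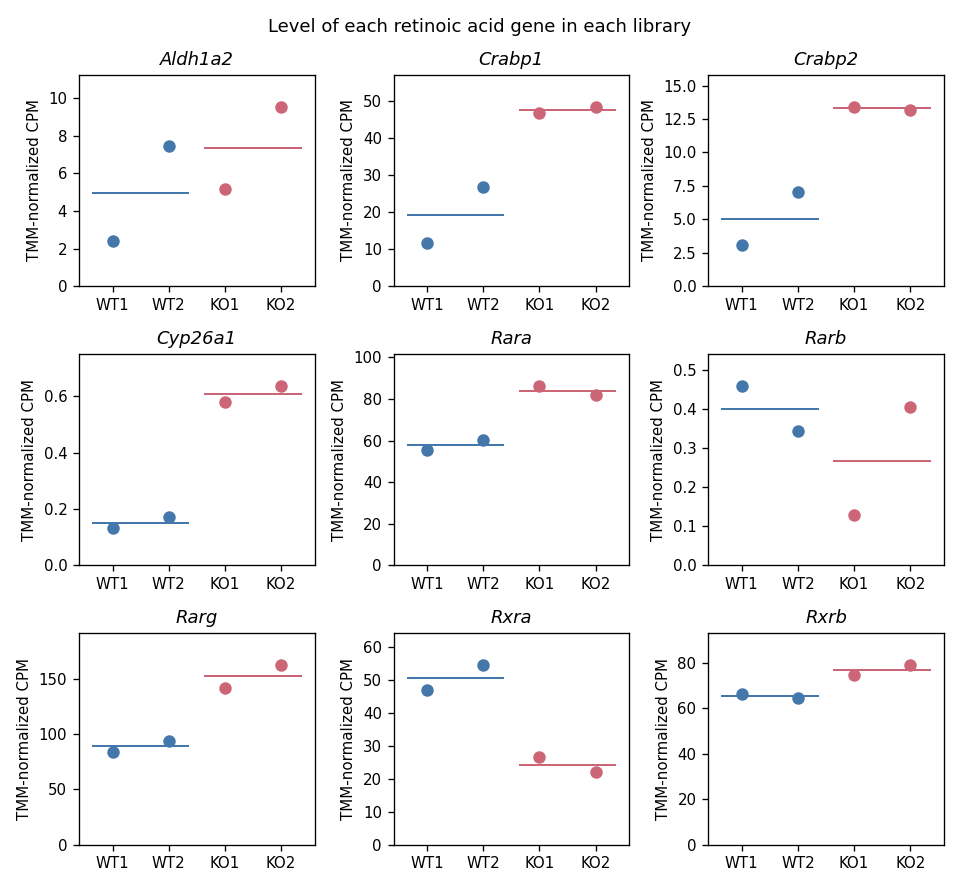
TMM-normalized CPM (y axis, linear, from 0) of the 9 genes in each library (x axis); points are libraries, blue for WT and red for Npac KO, and lines are group means. Rarg, Rara, Crabp1, Crabp2, Cyp26a1 and Rxrb had both KO libraries above both WT libraries, Rxra had both below, and Rarb and Aldh1a2 overlapped. Of all genes tested, 33.2% lay above and 32.5% below in this way, and Cyp26a1 and Rarb had too few reads to be tested.

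Rarg encodes RAR gamma (ENSMUSG00000001288, chromosome 15 from 102143373 to 102165952 in the authors' files). It had 83.9 CPM in WT1, 93.6 CPM in WT2, 142 CPM in KO1 and 162 CPM in KO2. Both KO libraries lay above both WT libraries, as in 33.2% of all genes tested. The mean rose from 88.8 ± 6.9 CPM to 152 ± 14.1 CPM (SD, n = 2 each), 1.71-fold, which on the log2 scale is 0.77 (standard error 0.18, edgeR adjusted p = 0.0224). The log2 fold change lay between 0.67 and 0.86 when a library was left out, and without KO1 or without KO2 the adjusted p was 0.113 and 0.225.

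Rara encodes RAR alpha (ENSMUSG00000037992, chromosome 11 from 98818644 to 98865768). Its levels were 55.5 CPM in WT1, 60.4 CPM in WT2, 86.1 CPM in KO1 and 81.8 CPM in KO2, again without overlap. Group means were 57.9 ± 3.48 CPM (WT) and 83.9 ± 3.02 CPM (KO, SD, n = 2 each), a log2 fold change of 0.54 (standard error 0.18, edgeR adjusted p = 0.066), short of both thresholds. Without WT2 it was 0.59 and passed both (edgeR adjusted p = 0.00845). Genes of chromosome 11 were higher as a group in both KO libraries, with a median log2 difference from WT of 0.477 in KO1 and 0.451 in KO2 relative to all genes. With the median of each chromosome removed from each KO library, the log2 fold change of Rara was 0.07 (edgeR adjusted p = 0.804), while that of Rarg was 0.84.

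Rarb encodes RAR beta (ENSMUSG00000017491, chromosome 14 from 5650540 to 6038924). It had 7 reads in WT1, 6 reads in WT2, 2 reads in KO1 and 7 reads in KO2, so the gene with a DR5 in the window shown above was close to unread in both genotypes. The ratio of Npac KO to WT reads was 0.69, with an exact 95% interval of 0.26 to 1.74 that covers counting error only. At these read numbers only a large difference could be detected. Rarb overlaps Top2b on the opposite strand, which had between 849 and 2516 reads per library, and whether counting used strand is not given in the sources used here.

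To compare receptors with each other, levels per length are needed, and the deposited FPKM values give them. The RAR genes together reached 32.3 FPKM in WT1, 35.6 FPKM in WT2, 52.8 FPKM in KO1 and 55.7 FPKM in KO2. Rarg made up 60.6% and 61.3% of that sum in WT cells and 62.8% and 66.8% in Npac KO cells. Rara made up 39.1% and 38.6% in WT cells and 37.2% and 33% in Npac KO cells. Rarb gave at most 0.268% in any library. The ratio of Rarg to Rara was 1.55 and 1.59 in WT cells and 1.69 and 2.02 in Npac KO cells. These sums and shares were not tested, since 2 libraries against 2 cannot reach a small p in a permutation test.

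Rxra encodes RXR alpha (ENSMUSG00000015846, chromosome 2 from 27566452 to 27652969) and moved the other way. It had 46.8 CPM in WT1, 54.4 CPM in WT2, 26.5 CPM in KO1 and 22.1 CPM in KO2. Both KO libraries lay below both WT libraries, as in 32.5% of all genes tested. The mean fell from 50.6 ± 5.34 CPM to 24.3 ± 3.1 CPM (SD, n = 2 each), to 48% of the WT level, which on the log2 scale is -1.06 (standard error 0.21, edgeR adjusted p = 0.0131). Its log2 fold change stayed between -1.20 and -0.90 under all 11 alternatives, and the adjusted p was 0.0518 without KO1 and 0.154 without KO2.

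Rxrb encodes RXR beta (ENSMUSG00000039656, chromosome 17 from 34250786 to 34257373). Levels were 66.2 CPM in WT1, 64.4 CPM in WT2, 74.6 CPM in KO1 and 78.9 CPM in KO2, which did not overlap. The log2 fold change was 0.23 (standard error 0.17, edgeR adjusted p = 0.367), and it lay between 0.21 and 0.32 under the alternatives. With Rxrg, the remaining RXR gene, included, the summed RXR level was 24.2 FPKM in WT1, 24.9 FPKM in WT2, 23.2 FPKM in KO1 and 23.3 FPKM in KO2. Rxra supplied 30.5% and 34.3% of it in WT cells and 18% and 14.8% in Npac KO cells, and Rxrb supplied 68.5% and 64.4% in WT cells and 80.5% and 83.7% in Npac KO cells. The summed RAR level was 1.34 and 1.43 times the summed RXR level in WT cells and 2.27 and 2.39 times in Npac KO cells. These ratios were not tested, and the RAR sum includes Rara, whose log2 fold change was 0.07 with chromosome medians removed.

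**Figure D2:**
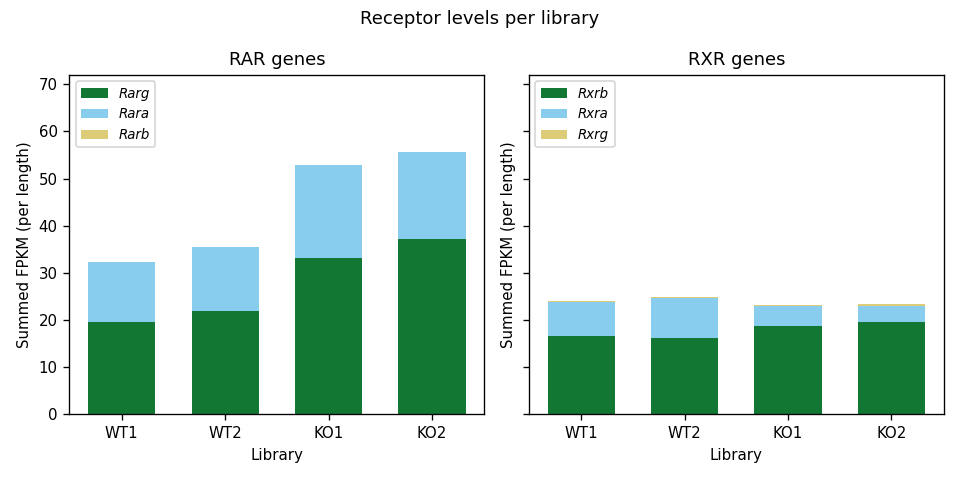
Stacked deposited FPKM (y axis, per gene length) of the RAR genes and the RXR genes in each library (x axis), coloured by gene. The RAR sum is 32.3 and 35.6 in WT and 52.8 and 55.7 in Npac KO libraries, the RXR sum lies between 23.2 and 24.9 in every library with a smaller Rxra part in KO1 and KO2, and Rarb and Rxrg are barely visible.

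Crabp1, an abundant carrier that holds retinoic acid in the cytosol (ENSMUSG00000032291, chromosome 9 from 54672032 to 54680394), had 11.6 CPM in WT1, 26.7 CPM in WT2, 46.8 CPM in KO1 and 48.4 CPM in KO2. The KO libraries were close to each other and above both WT libraries, which differed 2.31-fold. The mean rose from 19.2 ± 10.7 CPM to 47.6 ± 1.08 CPM (SD, n = 2 each), a log2 fold change of 1.31 (standard error 0.36, edgeR adjusted p = 0.0384). The size rested on the WT library used. It was 0.81 without WT1 and 2.03 without WT2, and without KO2 it was 1.30 with an adjusted p of 0.0687 in edgeR.

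Crabp2, which delivers retinoic acid to RARs in the nucleus (ENSMUSG00000004885, chromosome 3 from 87855973 to 87860683), was likewise lowest in WT1 and higher in both KO libraries than in WT2. It had 3.08 CPM in WT1, 7.04 CPM in WT2, 13.4 CPM in KO1 and 13.2 CPM in KO2. Group means were 5.06 ± 2.8 CPM (WT) and 13.3 ± 0.152 CPM (KO, SD, n = 2 each), a log2 fold change of 1.39 (standard error 0.42, edgeR adjusted p = 0.0515). It therefore missed the threshold narrowly, and it passed both thresholds under 6 of the 7 alternatives that kept all libraries. The log2 fold change was 0.89 without WT1, 2.11 without WT2, 1.37 without KO1 and 1.42 without KO2. Per length, Crabp1 was 6.21, 6.26, 5.74 and 6.02 times as high as Crabp2 in WT1, WT2, KO1 and KO2. The genes thus kept nearly 1 ratio in 4 libraries although each differed more than 2-fold between WT1 and WT2.

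Fabp5, a fatty acid carrier of the same protein family that also binds retinoic acid, is no member but stood beside them. It had 3.8 CPM in WT1, 11.9 CPM in WT2, 40.9 CPM in KO1 and 38.2 CPM in KO2, and rose by 2.32 on the log2 scale (standard error 0.46, edgeR adjusted p = 0.0134). The log2 fold change was 1.70 without WT1 and 3.37 without WT2. Per length, Crabp2 was 2.19 and 1.6 times as high as Fabp5 in WT cells and 0.888 and 0.935 times as high in Npac KO cells.

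Aldh1a2, the main retinaldehyde dehydrogenase of the early embryo (ENSMUSG00000013584, chromosome 9 from 71123071 to 71203525), had 2.42 CPM in WT1, 7.44 CPM in WT2, 5.15 CPM in KO1 and 9.53 CPM in KO2. The groups overlapped, and both pairs were wide apart. The log2 fold change was 0.57 (standard error 0.57, edgeR adjusted p = 0.503). Its size depended on the library left out, with -0.04, close to no change, without WT1 and 1.60 without WT2. It was 0.93 without KO1 and 0.07 without KO2.

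Cyp26a1, which breaks down retinoic acid (ENSMUSG00000024987, chromosome 19 from 37686246 to 37689984), had 2 reads in WT1, 3 reads in WT2, 9 reads in KO1 and 11 reads in KO2. KO1 and KO2 exceeded WT1 and WT2, but all were within reach of a few reads. Summed reads gave a Npac KO to WT ratio of 3.99, with an exact 95% interval of 1.45 to 13.6 for counting error only, which leaves out the spread between libraries. In the DESeq2 fit and the edgeR fit without a filter, which include it, its adjusted p was 0.416 and 0.207.

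Per length, the order of the 9 genes in WT cells was Crabp1 with a mean of 23.7 FPKM, Rarg with 20.7, Rxrb with 16.3, Rara with 13.2, Rxra with 7.97, Crabp2 with 3.8, Aldh1a2 with 2.16, Cyp26a1 with 0.0757 and Rarb with 0.0756. Neighbours whose WT libraries overlapped were Crabp1 and Rarg, Crabp2 and Aldh1a2, and Cyp26a1 and Rarb. In Npac KO cells Crabp1 led with 58.7 ± 0.73 FPKM and Rarg followed with 35.2 ± 2.9 FPKM (SD, n = 2 each), without overlap. Crabp2, at 9.98 FPKM, stood above Rxra, at 3.82 FPKM, the reverse of their WT order. The overlapping neighbours in Npac KO cells were Rxrb and Rara, and Rxra and Aldh1a2.

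The list of other pathway genes held 51 genes, of which 41 were tested. In this list 3 genes rose and 3 fell, where 11.0% and 10.7% of all genes tested did. The median log2 fold change was 0.17, against 0.00 over all genes tested, and KO1 and KO2 both exceeded the higher WT value for 14 genes and both stayed under the lower WT value for 14, as 33.2% and 32.5% of all genes tested did, so these counts are near the background. Of 12 genes of retinoic acid synthesis and retinol handling, 8 were tested and none passed both thresholds. Dhrs3, a retinaldehyde reductase, had a log2 fold change of -0.94 (edgeR adjusted p = 0.221). Stra6 lay on the other side at 0.92 (edgeR adjusted p = 0.257), and the median of the 8 tested genes was 0.20. The 4 that were not tested, among them Aldh1a1, had at most 13 reads in any library. Of the remaining Cyp26 genes, Cyp26b1 was tested and differed by 0.62 on the log2 scale (standard error 0.61, edgeR adjusted p = 0.503), and Cyp26c1 had at most 15 reads.

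Among 10 coregulators, all tested, Crebbp fell. Crebbp, an acetyltransferase recruited by receptors that have bound ligand, had 49 CPM in WT1, 44.5 CPM in WT2, 21 CPM in KO1 and 26.8 CPM in KO2. Its log2 fold change was -0.96 (standard error 0.21, edgeR adjusted p = 0.0192), and the adjusted p was 0.22 without KO1, 0.0785 without KO2 and 0.0694 and 0.0709 by limma-trend with the larger and the smaller pseudocount on FPKM. The corepressor gene Ncor1, which lies on chromosome 11, had a log2 fold change of 0.24 (edgeR adjusted p = 0.729). Its WT libraries, at 402 and 135 CPM, lay on either side of the KO libraries, at 345 and 287 CPM.

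Of 10 other nuclear receptors that pair with RXRs, 9 were tested, Thra rose and Thrb fell. Thra, which encodes thyroid hormone receptor alpha, had 13.3 and 18.5 CPM in the WT libraries against 32.5 and 32.4 CPM in the KO libraries, and its log2 fold change was 1.02 (standard error 0.25, edgeR adjusted p = 0.0242). It lies on chromosome 11, as Rara does, its coordinates overlap those of Nr1d1 on the opposite strand, and its log2 fold change was 0.56 (edgeR adjusted p = 0.145) with chromosome medians removed. Without KO1 and without KO2 the adjusted p was 0.138 and 0.123. Thrb, which encodes thyroid hormone receptor beta, had 88 and 60 reads in WT cells and 3 and 7 reads in Npac KO cells, a log2 fold change of -3.89 (standard error 0.61, edgeR adjusted p = 0.00636). It was past both thresholds under all 11 alternatives, though only -0.63 on the log2(FPKM + 1) scale, where the pseudocount shrinks low genes.

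Among 15 genes known to be induced by retinoic acid in stem cells or embryos, 11 were tested, Hoxb4 rose and Stra8 fell. Hoxb4, a homeobox gene, had 6 and 12 reads in WT cells and 29 and 44 reads in Npac KO cells, a log2 fold change of 2.01 (standard error 0.57, edgeR adjusted p = 0.0416). It lies on chromosome 11, and it lost the call with chromosome medians removed (1.55, edgeR adjusted p = 0.0938) and by DESeq2 (adjusted p = 0.0834), and in edgeR without WT1, KO1 or KO2 (adjusted p = 0.0652, 0.161 and 0.301). Stra8, a gene of meiotic entry, had 70.1 and 171 CPM in the WT libraries against 30.9 and 51.4 CPM in the KO libraries, and its log2 fold change was -1.55 (standard error 0.42, edgeR adjusted p = 0.0366). It was -0.77 without WT2 and -2.08 without WT1, its adjusted p was 0.052 without KO1, and it missed the threshold by limma-trend. The remaining 9 ranged from -1.70 for Tgm2, a transglutaminase, to 1.70 for Nr2f1, an orphan receptor. Hoxb1, an early target, had 0 reads in the WT libraries and 3 in each KO library, which is at the floor of 3 reads per library.

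**Figure D3:**
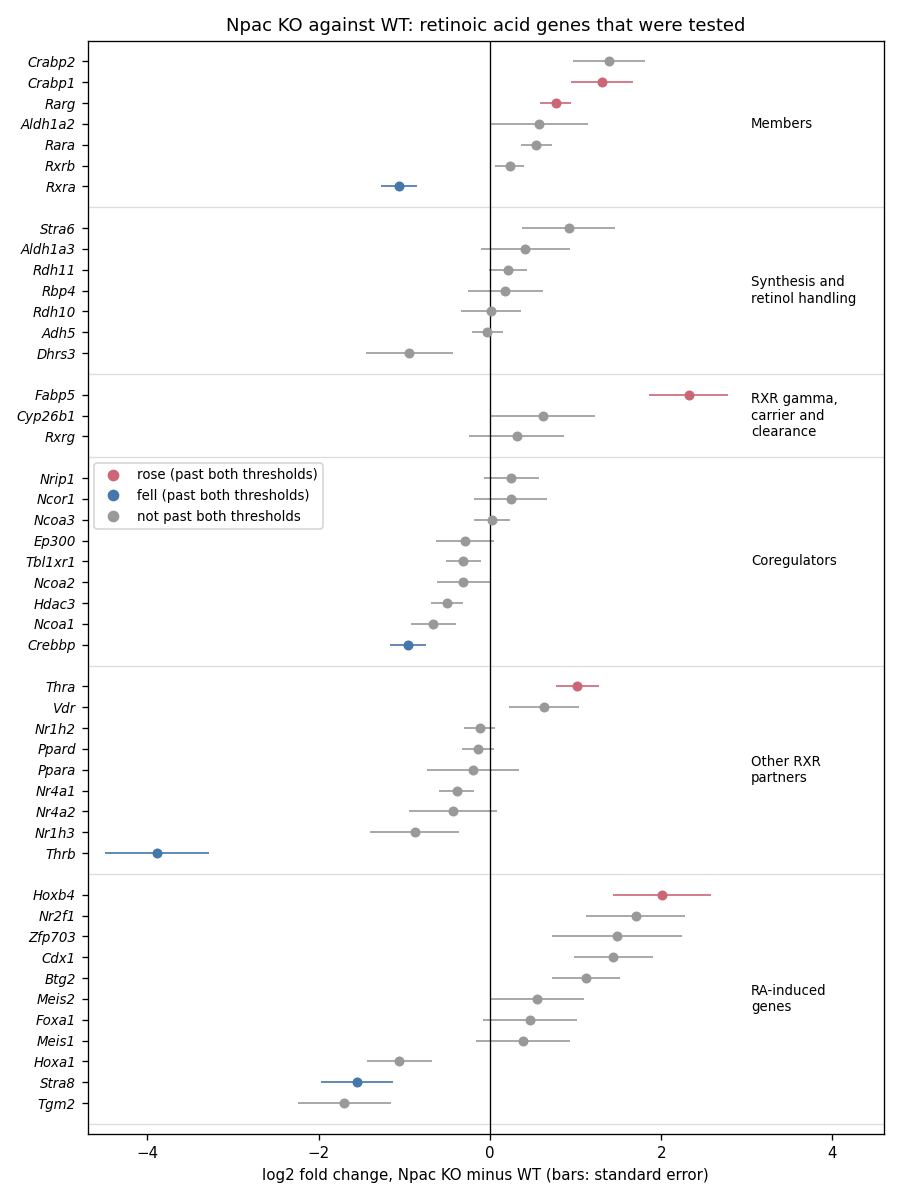
Log2 fold change of Npac KO minus WT (x axis, edgeR) with its standard error (bars) for the 7 tested members and the tested pathway genes that are reported (y axis), grouped by role; red rose, blue fell and grey did not pass both thresholds. In each role of the pathway list at most 1 gene rose and at most 1 fell, and Thrb and Fabp5 lie farthest from 0 at -3.89 and 2.32.

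The WT libraries differed from each other more in some roles than in others. Over all genes tested the median gap between WT1 and WT2 was 0.39 on the log2 scale, against 0.23 between KO1 and KO2. The gap between WT1 and WT2 was 1.21 for Crabp1, 1.19 for Crabp2 and 1.62 for Aldh1a2, and between 0.04 and 0.22 for Rxrb, Rara, Rarg and Rxra. Among the genes known to be induced by retinoic acid, 8 of 11 were over 1.5-fold higher in WT2 than in WT1, against 18.8% of all genes tested, and 1 was over 1.5-fold lower, against 15.8%. Between the KO libraries, 6 of those 11 were over 1.5-fold higher in KO2 and 0 in KO1, against 11.6% and 6.89% of all genes. The gap between WT1 and WT2 was not particular to those genes. WT2 was over 1.5-fold higher for 5 of 8 genes of synthesis and retinol handling and for 3 of 7 members, and WT1 for 0. Of the coregulators 4 of 10 were over 1.5-fold higher in WT1 and 0 in WT2. Between the KO libraries, KO2 was over 1.5-fold higher for 1 of the 8 synthesis genes, 1 of the 7 members and 0 of the 10 coregulators. Some induced genes had few reads in WT1 and WT2, such as 6 and 12 for Hoxb4 and 16 and 35 for Meis1. Counting error is large for such genes, and the shares over all genes mix low and high read numbers. Others that were higher in WT2 had many reads, with 1071 and 2990 for Stra8, 401 and 1513 for Tgm2 and 265 and 770 for Btg2. The cause of the gap was not tested. The libraries with the same number cannot be tied to a shared culture or day from the labels.

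**Figure D4:**
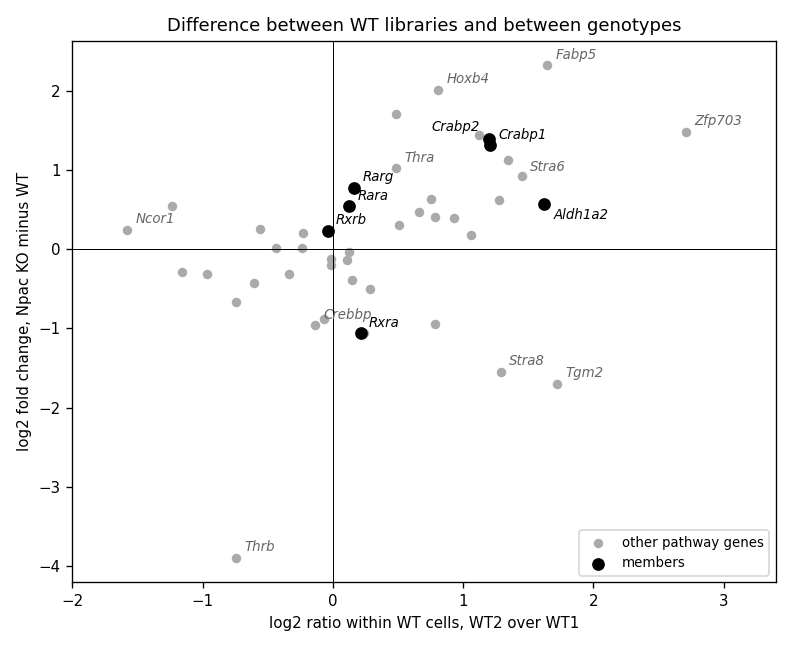
Log2 ratio of WT2 to WT1 (x axis) against the log2 fold change of Npac KO minus WT (y axis) for the tested members (black) and the other pathway genes that are reported (grey); both axes use the WT libraries, so the points are a description. Rara, Rarg, Rxra and Rxrb lie within 0.22 of 0 on the x axis, while Crabp1, Crabp2 and Aldh1a2 lie between 1.19 and 1.62.

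Each gene was also set beside the 10 tested genes nearest to it on its chromosome. Around Rara, the median log2 fold change of these genes was 1.10, and 7 of 10 rose, among them Cdc6, Top2a and Wipf2, so the 0.54 of Rara lay below their median. On chromosome 11 as a whole 26.7% of 1455 tested genes rose. Around Rarg the median was 0.33 with 3 genes up and 1 down, and around Rxra it was -0.03 with 2 genes down. The 10 genes nearest to Crabp1 had a median of 0.18 and those nearest to Crabp2 a median of 0.13, and 0 of them passed both thresholds in either place. Around Rarb 4 of 10 genes fell, including Thrb and the overlapping Top2b (log2 fold change -1.22).

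**Figure D5:**
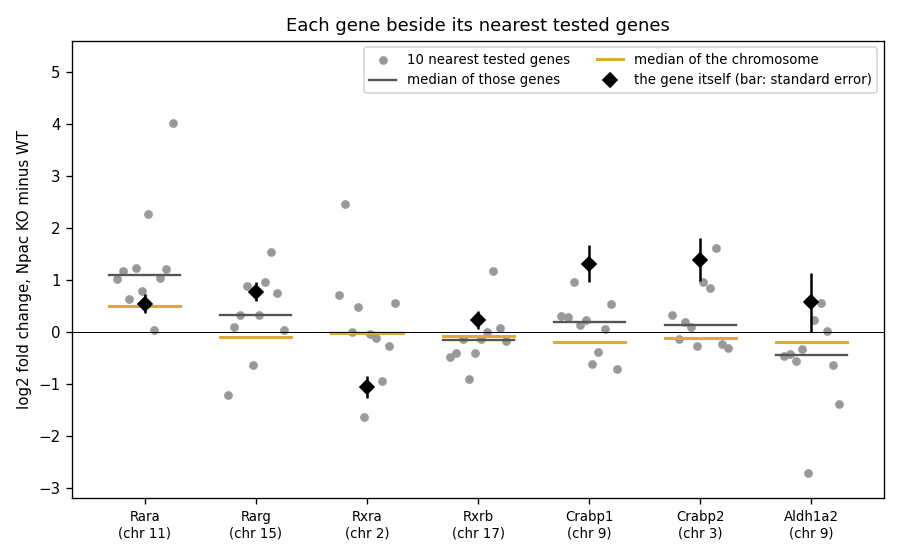
Log2 fold change of Npac KO minus WT (y axis) for each tested member (black diamond, bar is the standard error), for the 10 tested genes nearest to it (grey points, line at their median) and as the median of its chromosome (yellow line). Rara, at 0.54, lies near its chromosome's median of 0.50, whereas Crabp1, Crabp2 and Rxra lie away from theirs.

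The genes outside the group whose 4 values ran closest to those of Crabp1 were Tesc, Nectin4 and Cd164l2, with root-mean-square distances of 0.0307, 0.0428 and 0.051 in centred log2 CPM. They were picked from 11678 genes with a mean of at least 100 reads. Tesc had 9.95, 21.7, 39.1 and 40.1 CPM in WT1, WT2, KO1 and KO2. Closest to Rxra were Tmem179b, Tpt1-ps3 and Elk3, at distances of 0.0311, 0.0389 and 0.0435. With 4 libraries such a likeness is a description of these values.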

How the data were processed

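RNA-seq of E14 cells was analysed in 2 WT and 2 Npac KO libraries, sequenced as paired-end reads. The authors deposited raw read counts per gene and FPKM values. In the files, FPKM values are proportional within a library to counts over gene length. The paper's methods name HISAT, and the submitters' processing notes name CASAVA, HISAT2 2.0.5, featureCounts 1.5.0-p3 and mm10. However, gene positions in the files matched the GRCm38 annotation for 2.83% of 52073 gene IDs and 0 of the 9 genes, so positions are printed as deposited and kept apart from the RefSeq windows. Strand setting is not given in the sources used here.

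Counts were fitted in R 4.3.3 with edgeR 4.0.16 (TMM, filterByExpr, quasi-likelihood test) over 18157 genes, with Benjamini-Hochberg adjustment, after the study's methods, which state edgeR and both thresholds. The script was tested on simulated data. Depth was 15850805 to 16965120 reads per library, and intervals and the floor of 3 reads cover counting error only. The 11 alternatives were DESeq2 1.42.0, its size factors in edgeR, no filter, a replicate block, limma 3.58.1 (limma-trend) on log2(FPKM + 1) and log2(FPKM + 0.1), chromosome medians removed, and each library left out. All members, each pathway gene past both thresholds, Glyr1 and the 3 genes most like the member with the largest rise or fall were to be named. Other genes were named after their values were seen. The members and lists were chosen with earlier results of these data known. Promoter, replicate-gap and nearest-gene descriptions were added after the data were seen. Some pathway genes are counted in the lists but not reported here by name or drawn.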

Additional observations from a re-analysis of the deposited data

How the results depend on the processing

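The direction of Rara, Rarg, Rxra, Rxrb, Crabp1 and Crabp2 was the same under all 11 alternatives. Aldh1a2 was -0.04, close to no change, without WT1 and 1.60 without WT2, and it was 0.93 without KO1 and 0.07 without KO2. Leaving out libraries 1 at a time, with the spread taken from the remaining pair and the lone library assumed to vary like it, between 0 and 5 members rose and between 0 and 1 fell, and the other alternatives gave 2 or 3 rising members and 1 falling. Of the pathway list, 1 to 9 genes rose and 1 to 6 fell with a library left out. Without a filter on low counts 7 rose and 5 fell, by limma-trend on either FPKM scale 1 fell, and with chromosome medians removed 1 rose. In these alternatives the cause was not tested.

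With the replicate number as a block, 8 pathway genes rose and 6 fell, and Crabp2 passed both thresholds. Over all genes 3128 rose and 2994 fell, against 1999 and 1946. The labels give no pairing, so the block is not read as a design. Deviations from the group means correlated at 0.345 between WT1 and KO1, so libraries with the same number tended to deviate in the same direction. Whether they share a culture or day was not tested. Leaving out a library changed the total over all genes to between 826 and 3571 rising and 821 and 3384 falling. The order of the members by level was the same with TMM-normalized CPM per length. Depth limits Rarb, Cyp26a1 and 10 pathway genes with too few reads to be tested.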
